A study of Mus musculus with 4 samples.

Results

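The unfolded protein response and the integrated stress response were followed through 35 genes in bronchial epithelial cells of mice with antigen-induced asthma. The genes were taken by name from the probe annotation of the arrays, and all 35 were found, with 42 probes, among 27746 named genes with 36025 probes. They fall into 14 chaperones and folding enzymes of the endoplasmic reticulum (ER), 6 genes of ER-associated degradation, 4 sensors and transcription factors of the unfolded protein response, and ATF4 with 10 genes known as its targets or close partners, counted together as 11 genes.

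Secreted and membrane proteins fold in the ER, where chaperones and disulphide isomerases assist them. When unfolded proteins build up, the membrane sensors IRE1 (Ern1), ATF6 and PERK (Eif2ak3) are activated. IRE1 splices the mRNA of Xbp1, ATF6 is cut to release a transcription factor, and both raise the transcription of chaperone and degradation genes. PERK phosphorylates the initiation factor eIF2 alpha, which lowers general translation and raises that of ATF4. Other kinases act on the same factor when amino acids run short or under other stresses, so the ATF4 branch, called the integrated stress response, can run without the chaperone branch. Secretory cells of the airway, which make mucins, rely on the ER folding machinery.

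The cells came from lungs of mice labelled Pla2g3-/- or Pla2g3+/+ (wild type). Pla2g3 encodes group III secreted phospholipase A2, which releases fatty acids and lysophospholipids from phospholipids. Each genotype was studied with antigen challenge and as a control. By the labelled protocol, mice were sensitised on days 0 and 14 with intraperitoneal ovalbumin (OVA, 10 µg) in 1.3 mg alum, breathed 1% OVA aerosol on days 26, 27 and 28 for 30 min each, and were sampled 3 h later. The treatment of the control mice is not stated in the labels, so a challenged-minus-control difference can include sensitisation. Every group is a single array of the one-colour Agilent kind, made from RNA pooled over 4 samples, and all 4 arrays lie on 1 slide. A difference between 2 arrays thus has no replicate behind it and gets no p-value.

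Values are levels: the log2 processed signal of a probe minus the 75th percentile of its array, so that a difference of 1 between arrays is 2-fold. That percentile was 1979 intensity units on the challenged and 1834 on the control array labelled Pla2g3-/-, and 1808 on the challenged and 1986 on the control wild-type array. Of all probes, 78.7% to 81.5% were well above background on an array, and all 35 genes were so on all 4. The error that the scanner software gives for a difference was 0.20 to 0.21 for the 35 genes, and repeated spots gave a median SD of 0.09 for a difference, but neither covers mice, pools or labelling. Pla2g3 went against the labels. It read 4154 intensity units on the challenged and 2023 on the control array labelled Pla2g3-/-, against 254 on the challenged and 239 on the control wild-type array. The sources used here do not give the deleted part, and a probe outside it checks nothing, so the arrays are called by their labels and every genotype direction rests on them.

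The 10 airway epithelial marker genes fixed for these cells, Krt5, Krt8, Epcam, Scgb1a1 and Foxj1 among them, had median levels of 4.86 and 4.95 on the challenged and control arrays labelled Pla2g3-/-, and of 5.03 and 4.98 on those of wild type. Markers of other cells were not even. The summed scaled signal of 10 T cell and thymocyte genes (in units of the array's 75th percentile) was 44.1 on the control array labelled Pla2g3-/-, against 6.45 on the challenged array of that label and 4.50 and 5.57 on the challenged and control wild-type arrays. Of 9 measured neutrophil genes, 8 were at least 1.5-fold higher with challenge in each genotype. Over all genes that held for 7.74% in cells labelled Pla2g3-/- and 4.56% in wild-type cells. The median difference of the neutrophil genes was 2.94 in cells labelled Pla2g3-/- and 1.67 in wild-type cells. The 8 macrophage genes had median challenge differences of 0.69 and 0.05. Between the challenged arrays, all 8 macrophage genes were higher under the label Pla2g3-/- (median 0.81), 7 of them at least 1.5-fold, beside 7.85% of all genes. In such mixed RNA, fewer cells of a type and less RNA per cell cannot be told apart.

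Promoter sequences are shown first, because the chaperone genes and the ATF4 targets differ in the known response motifs that they carry. The ER stress response element (ERSE) was searched as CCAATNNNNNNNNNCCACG, ERSE-II as ATTGGNCCACG, the unfolded protein response element (UPRE) as TGACGTGG, and the C/EBP-ATF response element (CARE), which ATF4 binds, as TGATGNAA, on both strands from 250 bases before to 50 bases after each start in the RefSeq promoter table (GRCm38.p6). Of the 35 genes, 31 were matched in that table. The letters of the ERSE occurred in 7 of 12 chaperone genes (Hspa5, Hsp90b1, Calr, Canx, Creld2, Dnajc3 and Pdia6), in 2 of 5 degradation genes (Syvn1 and Derl3) and in 0 of 11 genes of the ATF4 group, against 37 of 27025 genes in the whole table, 0.137%. The letters of the CARE occurred in 5 of 11 genes of the ATF4 group (Asns, Atf3, Chac1, Trib3 and Vldlr), in 0 of 12 chaperone genes and in Herpud1, against 4.51% of all genes. Matches of different motifs did not overlap in these genes. A match is a description of letters and not a measured binding site.

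The ERSE windows below are those of Hspa5 and of some of the other genes with a match. The CCAAT and CCACG ends are in capitals (written CGTGG and ATTGG where the match lies on the opposite strand). Canx, Dnajc3 and Derl3 are not shown. They had the lowest challenge differences of the 9 genes with a match in cells labelled Pla2g3-/- (0.15, 0.27 and 0.27). The windows are Hspa5 (chr2:34771840-34772089, plus strand), Hsp90b1 (chr10:86705445-86705694, minus strand), Creld2 (chr15:88819479-88819578, plus strand), Calr (chr8:84847035-84847134, minus strand), Pdia6 (chr12:17266450-17266549, plus strand) and Syvn1 (chr19:6046476-6046575, plus strand).
Hspa5: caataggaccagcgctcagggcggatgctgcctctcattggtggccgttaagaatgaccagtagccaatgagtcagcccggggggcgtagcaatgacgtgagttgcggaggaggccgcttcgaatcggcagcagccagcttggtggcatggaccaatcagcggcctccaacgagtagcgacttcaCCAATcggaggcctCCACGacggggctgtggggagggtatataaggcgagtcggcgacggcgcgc
Hsp90b1: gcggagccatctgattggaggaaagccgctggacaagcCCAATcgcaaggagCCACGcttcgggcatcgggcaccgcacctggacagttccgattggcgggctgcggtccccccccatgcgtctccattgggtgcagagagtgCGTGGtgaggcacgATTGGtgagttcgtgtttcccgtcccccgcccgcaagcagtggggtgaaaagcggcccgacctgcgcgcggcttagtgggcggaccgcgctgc
Creld2: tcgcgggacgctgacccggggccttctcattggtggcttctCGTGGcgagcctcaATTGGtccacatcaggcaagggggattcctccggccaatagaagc
Calr: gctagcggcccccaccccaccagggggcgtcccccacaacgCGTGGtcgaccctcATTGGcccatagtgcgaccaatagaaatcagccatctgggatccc
Pdia6: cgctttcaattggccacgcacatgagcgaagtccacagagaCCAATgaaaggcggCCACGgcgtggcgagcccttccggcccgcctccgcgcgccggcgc
Syvn1: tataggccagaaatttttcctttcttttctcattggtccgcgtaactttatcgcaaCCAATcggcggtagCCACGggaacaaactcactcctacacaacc

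The Hspa5 match begins 65 bases before the start, and Hsp90b1 holds 2 matches, on opposite strands, that begin 212 and 107 bases before it. In Creld2, Calr, Pdia6 and Syvn1 the match begins 126, 162, 98 and 44 bases before the start. An ERSE-II occurred in Herpud1, 52 bases before the start, and in Dnajb11, which holds it 8 bases after the start, against 0.0444% of all genes. The UPRE letters occurred in 0 of the 31 matched genes and in 0.714% of all genes. CARE windows are shown for the ATF4 targets with the largest differences and for Herpud1, which carries both kinds of motif, with the CARE in capitals on either strand (and, in Herpud1, the whole ERSE-II near the end of the window). They are Chac1 (chr2:119351003-119351102, plus strand), Atf3 (chr1:191183390-191183489, minus strand), Asns (chr6:7693210-7693309, minus strand) and Herpud1 (chr8:94386302-94386401, plus strand).
Chac1: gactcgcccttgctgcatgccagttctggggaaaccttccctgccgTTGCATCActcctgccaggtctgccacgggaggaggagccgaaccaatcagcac
Atf3: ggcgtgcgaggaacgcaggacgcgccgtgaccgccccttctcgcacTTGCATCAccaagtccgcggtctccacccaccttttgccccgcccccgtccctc
Asns: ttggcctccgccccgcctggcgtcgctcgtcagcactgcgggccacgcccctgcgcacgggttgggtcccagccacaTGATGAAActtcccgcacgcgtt
Herpud1: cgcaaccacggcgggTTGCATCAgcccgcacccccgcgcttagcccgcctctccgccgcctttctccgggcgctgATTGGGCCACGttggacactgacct

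**Figure D1:**
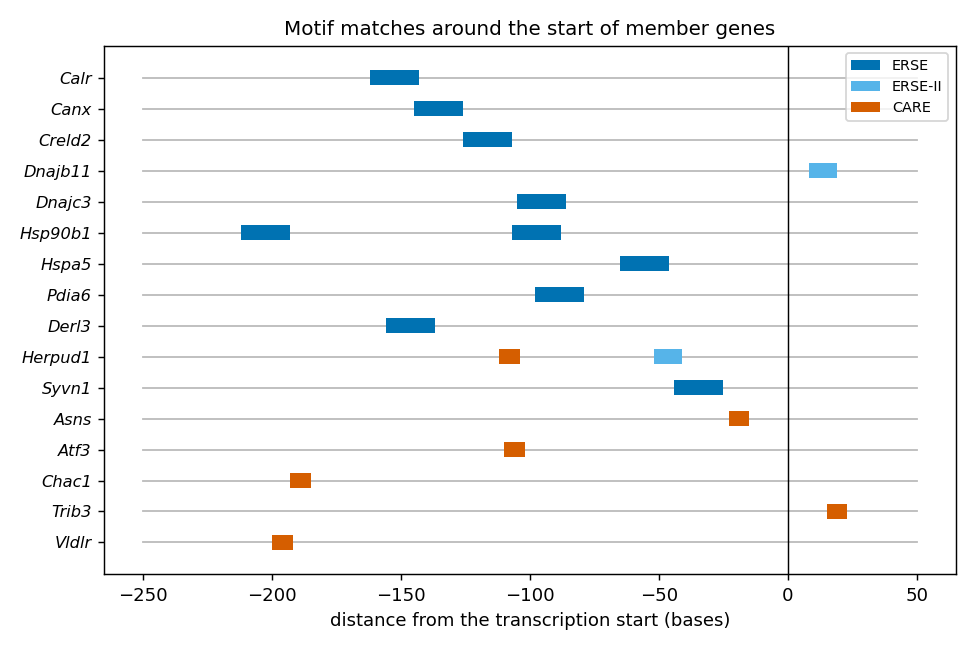
Position of ERSE (dark blue), ERSE-II (light blue) and CARE (orange) matches in the 16 genes with at least 1 of them, in bases from the transcription start (negative before it). The chaperone genes at the top hold ERSE or ERSE-II matches, and Asns, Atf3, Chac1, Trib3 and Vldlr at the bottom hold a CARE.

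The chaperones and folding enzymes were higher on the challenged array than on the control array in both genotypes, without exception among the 14 genes. Their median difference was 0.64 in cells labelled Pla2g3-/- and 0.60 in wild-type cells, against −0.06 and −0.03 over all measured genes. At least 1.5-fold higher (a difference of 0.585) were 9 of 14 in each genotype and 8 of 14 in both. Over all genes the same held for 7.74% in cells labelled Pla2g3-/-, 4.56% in wild-type cells and 2.02% in both. In wild-type cells Calr (0.5858) and Pdia6 (0.5961) lay close to the 1.5-fold limit. With normexp background correction both fell below it there (0.556 and 0.566). A 2-fold difference was reached by 2 of the 14 in cells labelled Pla2g3-/- (Dnajb9 and Manf), beside 3.86% of all genes, and by 0 in wild-type cells, beside 1.79%.

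Hspa5 encodes BiP, the main Hsp70 chaperone of the ER and the protein that holds the sensors inactive. Its level was 5.50 on the challenged and 4.69 on the control array labelled Pla2g3-/-, and 5.37 on the challenged and 4.63 on the control wild-type array. Both challenged arrays thus stood above both control arrays, by 0.81 (1.75-fold) within the label Pla2g3-/- and by 0.73 (1.66-fold) within wild type. Hsp90b1, the Hsp90 of the ER, had levels of 5.01 and 4.58 with and without challenge in cells labelled Pla2g3-/-, and of 5.16 and 4.64 in wild-type cells. Its differences, 0.43 and 0.52, were below 1.5-fold in each. Hyou1, a large Hsp70-related chaperone that exchanges nucleotides on BiP, was at −3.10 and −4.03 on the challenged and control arrays labelled Pla2g3-/-, and at −3.08 and −4.04 on those of wild type. Its differences of 0.94 and 0.97 (1.92-fold and 1.95-fold) were nearly the same in the 2 genotypes. With normexp background correction they were 0.59 and 0.71.

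Manf is a small ER protein that is also secreted. Its level was 3.24 with and 2.20 without challenge in cells labelled Pla2g3-/-, and 2.94 with and 2.06 without challenge in wild-type cells, which gave 1.04 (2.06-fold) and 0.88 (1.84-fold). Creld2, an ER protein with disulphide isomerase activity, was measured by 1 probe printed 10 times, whose spots had an SD of 0.05 to 0.06 on each array. Its level was 4.62 and 3.76 with and without challenge in cells labelled Pla2g3-/-, and 4.49 and 3.73 in wild-type cells, differences of 0.85 and 0.77. Those lie far outside the spread between its spots, which is an error of the slide and not of the mice. Sdf2l1, a partner of the ER DnaJ proteins, differed by 0.74 and 0.78.

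The lectin chaperones of the calnexin cycle differed by unequal amounts. Calr (calreticulin), the soluble one, was at 4.25 and 3.61 with and without challenge in cells labelled Pla2g3-/-, and at 4.12 and 3.54 in wild-type cells, differences of 0.65 and 0.59. Canx (calnexin), its membrane-bound relative, differed by 0.15 and 0.21, within about 1 scanner error. Pdia3, the disulphide isomerase that works with both lectins, differed by 0.16 and 0.31. These 2 were the lowest of the 14 in cells labelled Pla2g3-/-.

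Among the other disulphide isomerases, Pdia4 was at −0.08 and −0.71 with and without challenge in cells labelled Pla2g3-/-, and at −0.15 and −0.95 in wild-type cells, differences of 0.63 and 0.80. Pdia6 differed by 0.31 and 0.60 on its brighter probe and by 0.71 and 0.64 on the other, so whether it reached 1.5-fold in cells labelled Pla2g3-/- depended on the probe. With the other genotype's control array the brighter probe gave 0.37 in wild-type cells. Of the DnaJ co-chaperones of BiP, Dnajb11 differed by 0.64 and 0.61, and Dnajc3, known also as an inhibitor of PERK, by 0.27 and 0.24.

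Dnajb9, a DnaJ co-chaperone that is a known target of spliced XBP1 and helps BiP to silence IRE1, was the one chaperone set apart by genotype. Its level was 2.05 on the challenged and 0.87 on the control array labelled Pla2g3-/-, and 1.36 on the challenged and 0.81 on the control wild-type array. The 2 control arrays lay within 0.06 of each other, and the challenged array labelled Pla2g3-/- was 0.69 above the challenged wild-type array. The challenge difference was 1.18 (2.27-fold) in cells labelled Pla2g3-/- and 0.55 (1.47-fold) in wild-type cells. A second, dimmer probe gave 1.29 and 0.76, with 0.62 between the challenged arrays.

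**Figure D2:**
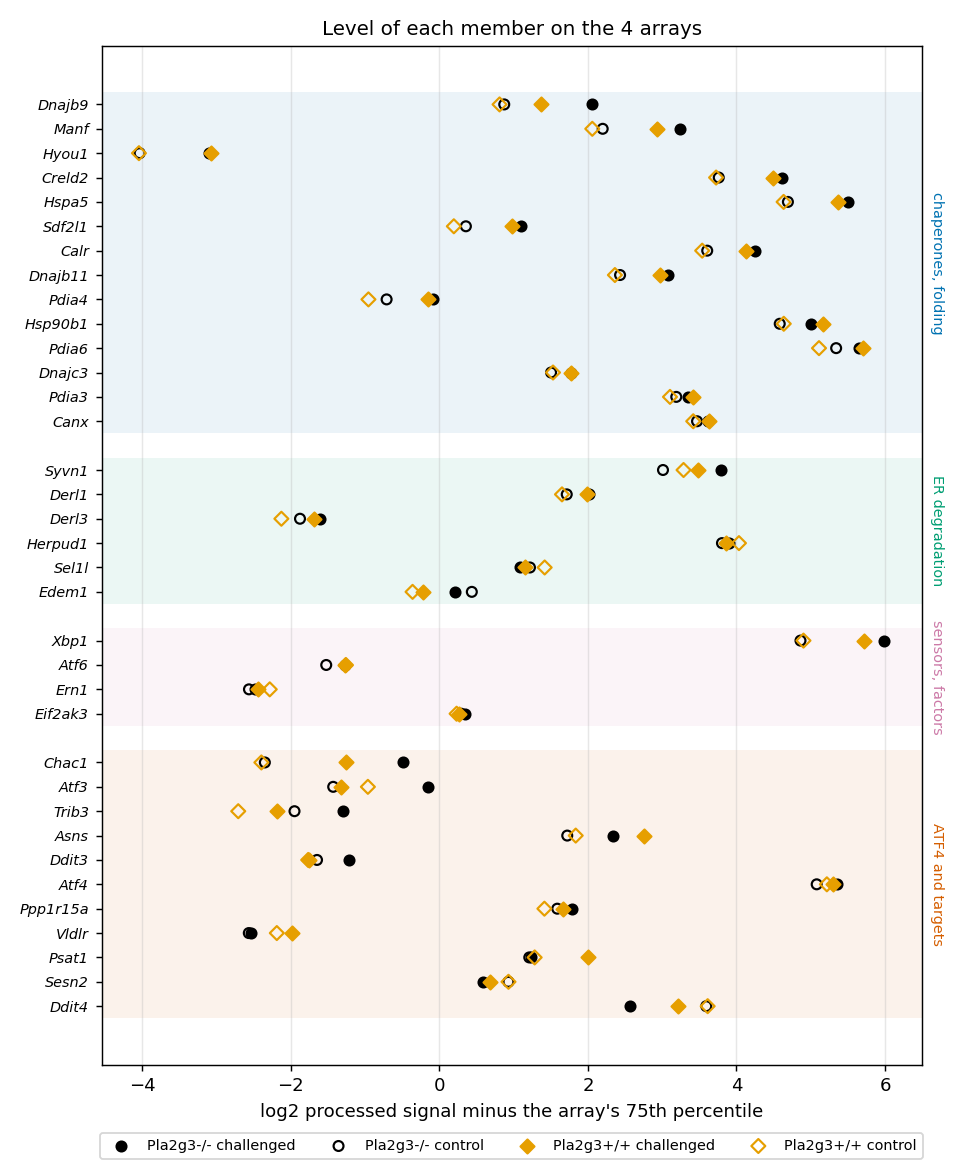
Level of each of the 35 genes (log2 processed signal minus the array's 75th percentile) on the 4 arrays, filled for challenged and open for control, black circles for arrays labelled Pla2g3-/- and orange diamonds for wild type. Within each role, genes are in the order of their challenge difference in cells labelled Pla2g3-/-. For all 14 chaperones both filled marks lie to the right of both open ones.

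Among the sensors and transcription factors, Xbp1 alone reached 1.5-fold, and it did so in both genotypes. Xbp1 encodes the transcription factor made after splicing by IRE1, and its single probe gives a total signal that was not resolved into spliced and unspliced mRNA. Its level was 5.99 on the challenged and 4.86 on the control array labelled Pla2g3-/-, and 5.72 on the challenged and 4.90 on the control wild-type array. The difference was 1.13 (2.19-fold) and 0.81 (1.76-fold). The sensors themselves differed little: Eif2ak3 (PERK) by 0.05 and 0.04, Atf6 by 0.25 and −0.01, and Ern1 (IRE1) by 0.08 and −0.16. The median of the 4 genes was 0.17 in cells labelled Pla2g3-/- and 0.01 in wild-type cells.

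Genes of ER-associated degradation, which moves misfolded proteins to the proteasome, had median differences of 0.19 in cells labelled Pla2g3-/- and 0.17 in wild-type cells. At least 1.5-fold higher were 1 of 6 in cells labelled Pla2g3-/- (Syvn1), beside 7.74% of all genes, and 0 of 6 in wild-type cells, beside 4.56%, so these counts do not stand out from all genes. Syvn1 encodes Hrd1, the membrane ubiquitin ligase at the centre of this pathway. It was at 3.79 on the challenged and 3.01 on the control array labelled Pla2g3-/-, and at 3.48 on the challenged and 3.29 on the control wild-type array. The control arrays differed by −0.28 between genotypes, and set against the other genotype's control array the challenge differences were 0.50 and 0.47, where its own control gave 0.78 and 0.20.

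Sel1l, the adaptor of Hrd1, differed by −0.14 and −0.26, and Herpud1, which joins the Hrd1 complex, by 0.10 and −0.18. Derl3 and Derl1, of the derlin family of the same complex, differed by 0.27 and 0.44 and by 0.29 and 0.34. The brighter of 2 Derl1 probes was placed on chromosome 12 (13442908 to 13442967, mm9) in the files and the other on chromosome 15 (57701488 to 57701547), which gave 0.17 and 0.15. Whether the brighter probe measures Derl1 could not be settled here. Edem1, a lectin that hands misfolded glycoproteins to degradation, was at 0.21 and 0.44 with and without challenge in cells labelled Pla2g3-/-, and at −0.22 and −0.36 in wild-type cells. Both arrays labelled Pla2g3-/- were above both wild-type arrays, by 0.44 with challenge and by 0.80 (1.74-fold) without. Its challenge differences of −0.22 and 0.14 became 0.57 and −0.66 with the other genotype's control array.

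The 11 genes of the ATF4 group varied more in direction and size than the chaperones. In cells labelled Pla2g3-/- 9 of 11 were above 0, beside 9756 of 23113 measured genes. In wild-type cells 8 of 11 were, beside 10671 of 23381. The group's median difference was 0.27 in cells labelled Pla2g3-/- and 0.20 in wild-type cells, lower than that of the chaperones in each. The middle of the group, between its quartiles, spanned 0.03 to 0.64 in cells labelled Pla2g3-/- and −0.11 to 0.62 in wild-type cells, where the chaperones spanned 0.34 to 0.84 and 0.53 to 0.78. At least 1.5-fold higher were 4 of 11 in cells labelled Pla2g3-/- (Chac1, Atf3, Trib3 and Asns), beside 7.74% of all genes, and 3 of 11 in wild-type cells (Chac1, Asns and Psat1), beside 4.56%. Lower by at least 1.5-fold was 1 of 11, Ddit4, in cells labelled Pla2g3-/-, beside 9.99% of all genes there (its 2.03-fold stands beside 3.44% of all genes at 2-fold), and 0 of 11 in wild-type cells, beside 5.32% (1.7% at 2-fold). The gap between the 2 roles was not tested, since the genes of a role are not replicates.

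Atf4 itself, the factor at the head of this branch and one regulated largely at translation, was at 5.35 and 5.08 with and without challenge in cells labelled Pla2g3-/-, and at 5.30 and 5.22 in wild-type cells. Its mRNA thus differed by 0.27 and 0.08, and a second probe gave 0.43 and 0.03. Ddit3 encodes CHOP, a factor of late ER stress that ATF4 induces. It was at −1.21 and −1.65 with and without challenge in cells labelled Pla2g3-/-, and at −1.75 and −1.76 in wild-type cells. The challenged array labelled Pla2g3-/- stood above the other 3, by 0.53 over the challenged wild-type array, but its challenge difference of 0.43 (1.35-fold) was below 1.5-fold.

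Chac1, which degrades glutathione and is a known target of both ATF4 and CHOP, had the largest challenge difference of the 35 genes in both genotypes. Its level was −0.49 on the challenged and −2.35 on the control array labelled Pla2g3-/-, and −1.26 on the challenged and −2.40 on the control wild-type array. That is 1.86 (3.62-fold) and 1.13 (2.20-fold), and 1.31% and 1.38% of all measured genes had a larger difference. The control arrays lay within 0.05, and the challenged arrays 0.77 (1.70-fold) apart.

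Trib3, a pseudokinase that feeds back on ATF4 and CHOP, differed by genotype on both pairs of arrays. It was at −1.30 and −1.95 with and without challenge in cells labelled Pla2g3-/-, and at −2.19 and −2.71 in wild-type cells. The arrays labelled Pla2g3-/- were higher by 0.89 (1.85-fold) with challenge and by 0.76 (1.69-fold) without, and the challenge differences were 0.65 and 0.52. With the other genotype's control array in place of its own they became 1.41 and −0.24. Those values include the genotype difference of 0.76 between the control arrays and are no separate check of the challenge direction.

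Atf3, a stress-induced factor that is both an ATF4 target and an immediate early gene, had opposite signs in the 2 genotypes. Its level was −0.15 on the challenged and −1.43 on the control array labelled Pla2g3-/-, and −1.32 on the challenged and −0.96 on the control wild-type array. One array, the challenged one labelled Pla2g3-/-, stood above the other 3. The challenge difference was 1.28 (2.43-fold) in cells labelled Pla2g3-/- and −0.36 in wild-type cells, the widest gap of the 35 genes (1.64), and with the other control array it was 0.81 and 0.10. The immediate early list had the same pattern: 12 of 14 measured genes were above 0 with a median of 0.55 in cells labelled Pla2g3-/-, and 0 of 14 with a median of −0.22 in wild-type cells. Fos differed by 1.09 and −0.37 and Fosb by 1.48 and −0.41. The list's part in the Atf3 result was not tested.

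The ATF4 group holds 2 enzymes of amino acid synthesis. Asns, asparagine synthetase, was at 2.34 and 1.72 with and without challenge in cells labelled Pla2g3-/-, and at 2.76 and 1.84 in wild-type cells, differences of 0.62 (1.54-fold) and 0.92 (1.90-fold). Psat1, an enzyme of serine synthesis, was at 1.24 and 1.21 with and without challenge in cells labelled Pla2g3-/-, and at 2.003 and 1.28 in wild-type cells. The challenged wild-type array alone stood apart, so that the difference was 0.03 in cells labelled Pla2g3-/- and 0.72 (1.65-fold) in wild-type cells, and a second probe gave 0.05 and 0.79.

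Ddit4, an inhibitor of the growth kinase complex mTORC1, was lower with challenge in both genotypes. It was at 2.57 and 3.59 with and without challenge in cells labelled Pla2g3-/-, and at 3.22 and 3.61 in wild-type cells, differences of −1.02 (2.03-fold lower) and −0.39 (1.31-fold lower). Sesn2, another inhibitor of mTORC1, was also lower in both, by −0.35 and −0.24. Ppp1r15a, the phosphatase subunit that restores eIF2 alpha, differed by 0.20 and 0.26, and Vldlr, a lipoprotein receptor that ATF4 is known to induce, by 0.03 and 0.20.

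**Figure D3:**
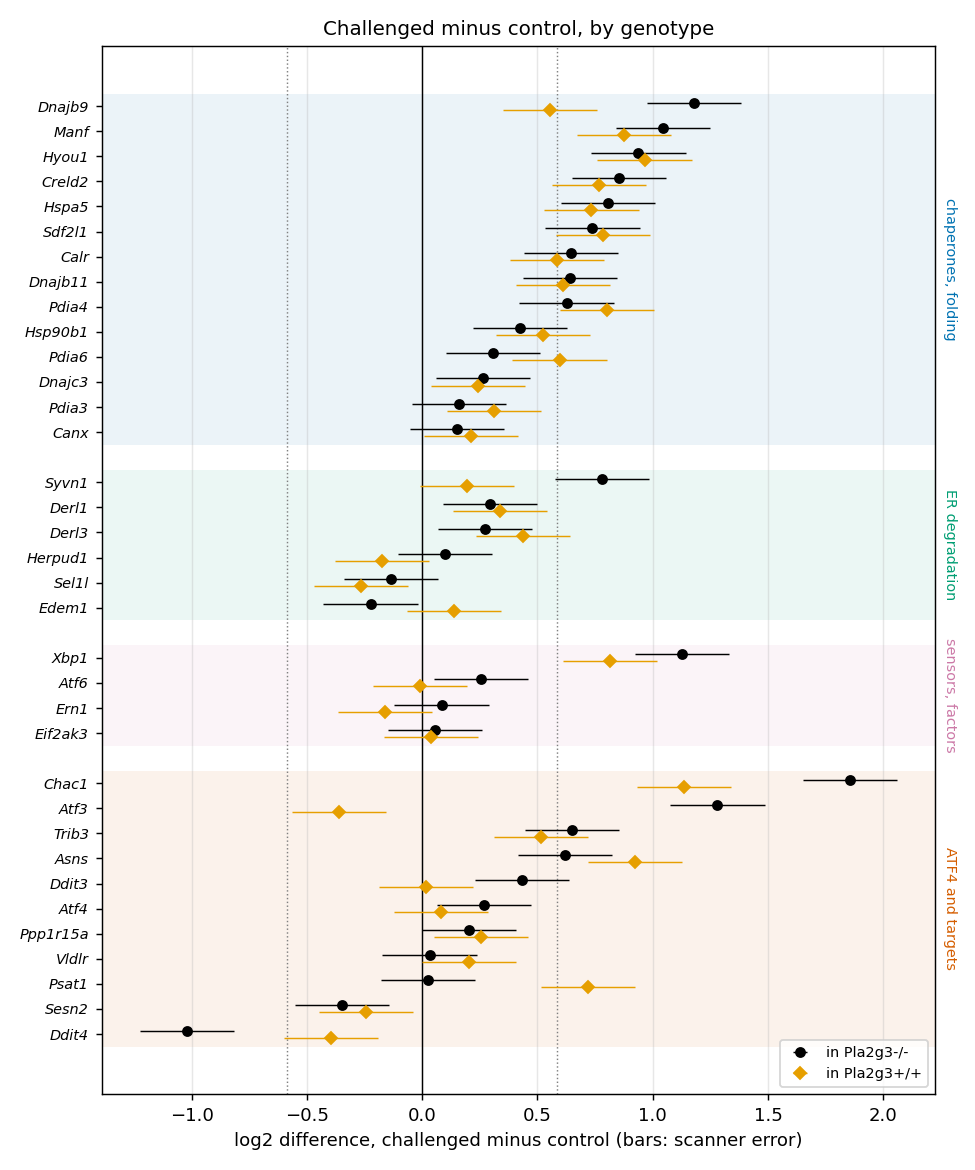
Challenged minus control difference (log2) of the 35 genes by role, black circles for cells labelled Pla2g3-/- and orange diamonds for wild type, with bars for the scanner's error of a difference and dotted lines at 1.5-fold. The chaperones all lie above 0 in both, while the ATF4 group runs from −1.02 for Ddit4 to 1.86 for Chac1 in cells labelled Pla2g3-/-.

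Across all 35 genes, 15 were at least 1.5-fold higher with challenge in cells labelled Pla2g3-/-, beside 7.74% of all genes, 13 in wild-type cells, beside 4.56%, and 11 in both, beside 2.02%. The 2 challenge differences share no array. They had the same sign in 30 of 35 genes, against 64.1% of all genes. That held for 14 of 14 chaperones and for 10 of 11 genes of the ATF4 group. The 2 differences lay within 0.2 of each other in 12 of 14 chaperones, the exceptions being Dnajb9 and Pdia6, and in 5 of 11 genes of the ATF4 group. Over all genes, 10892 of 22687 were within 0.2.

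**Figure D4:**
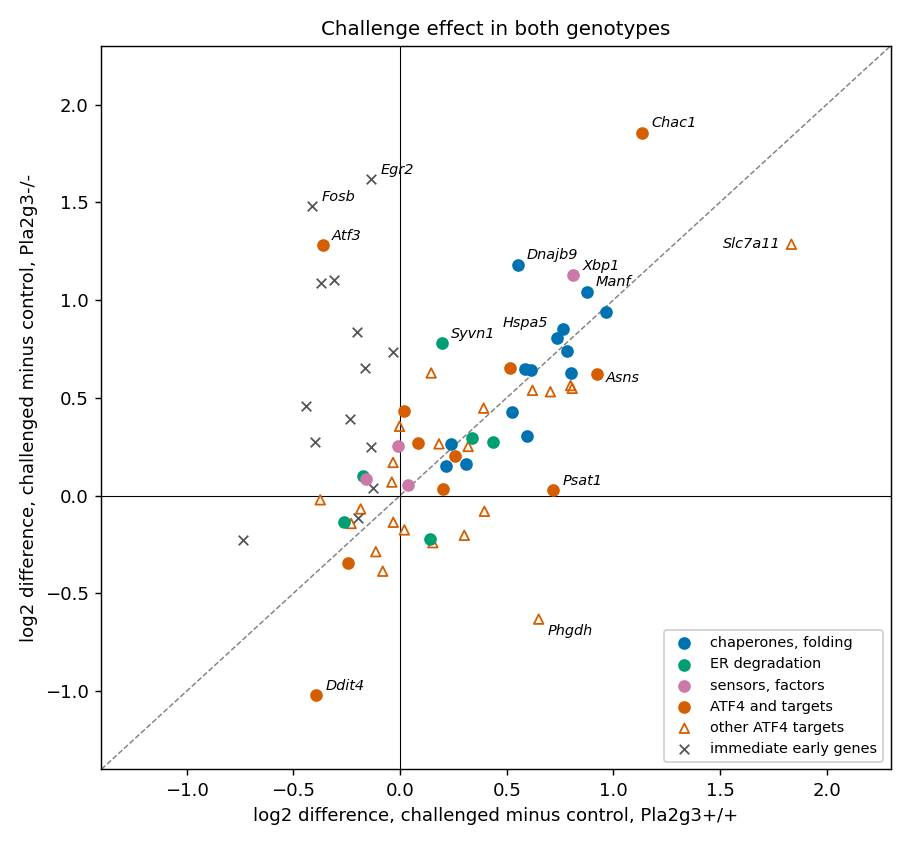
Challenge difference in cells labelled Pla2g3-/- (vertical) against that in wild-type cells (horizontal), both log2, for the 35 genes by role, for other known ATF4 targets (triangles) and for immediate early genes (crosses), with the line of equality dashed. Chaperones lie along the line, Atf3 lies with the immediate early genes at the upper left, and Psat1 and Phgdh lie below the line.

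Between the challenged arrays, the chaperones differed little by genotype, with a median of 0.08, and 1 of 14 (Dnajb9) was at least 1.5-fold higher in cells labelled Pla2g3-/-. Of all 35 genes, 4 were at least 1.5-fold higher (Atf3, Trib3, Chac1 and Dnajb9), beside 7.85% of all genes, and 2 at least 1.5-fold lower (Psat1 and Ddit4), beside 7.02%. Both shares are not far from those of all genes. The 6 include 5 of the ATF4 group. Atf3 was 1.18 (2.26-fold) higher and Psat1 0.76 lower in cells labelled Pla2g3-/-. Asns, by −0.42, and Vldlr, by −0.55, were lower by less than 1.5-fold.

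Without challenge, 2 of 35 genes were at least 1.5-fold higher in cells labelled Pla2g3-/-, Edem1 and Trib3, beside 6.67% of all genes, and 0 were 1.5-fold lower, beside 5.77%. The chaperone median was 0.07 and that of the ATF4 group −0.02. Differences of opposite sign with and without challenge, such as 1.18 and −0.47 for Atf3, share arrays with the challenge differences given above and are the same 4 values seen the other way. The gap between the 2 challenge differences reached 1.5-fold upward in 3 genes (Atf3, Chac1 and Dnajb9, beside 7.29% of all genes) and downward in 2 (Psat1 and Ddit4, beside 8.37%).

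**Figure D5:**
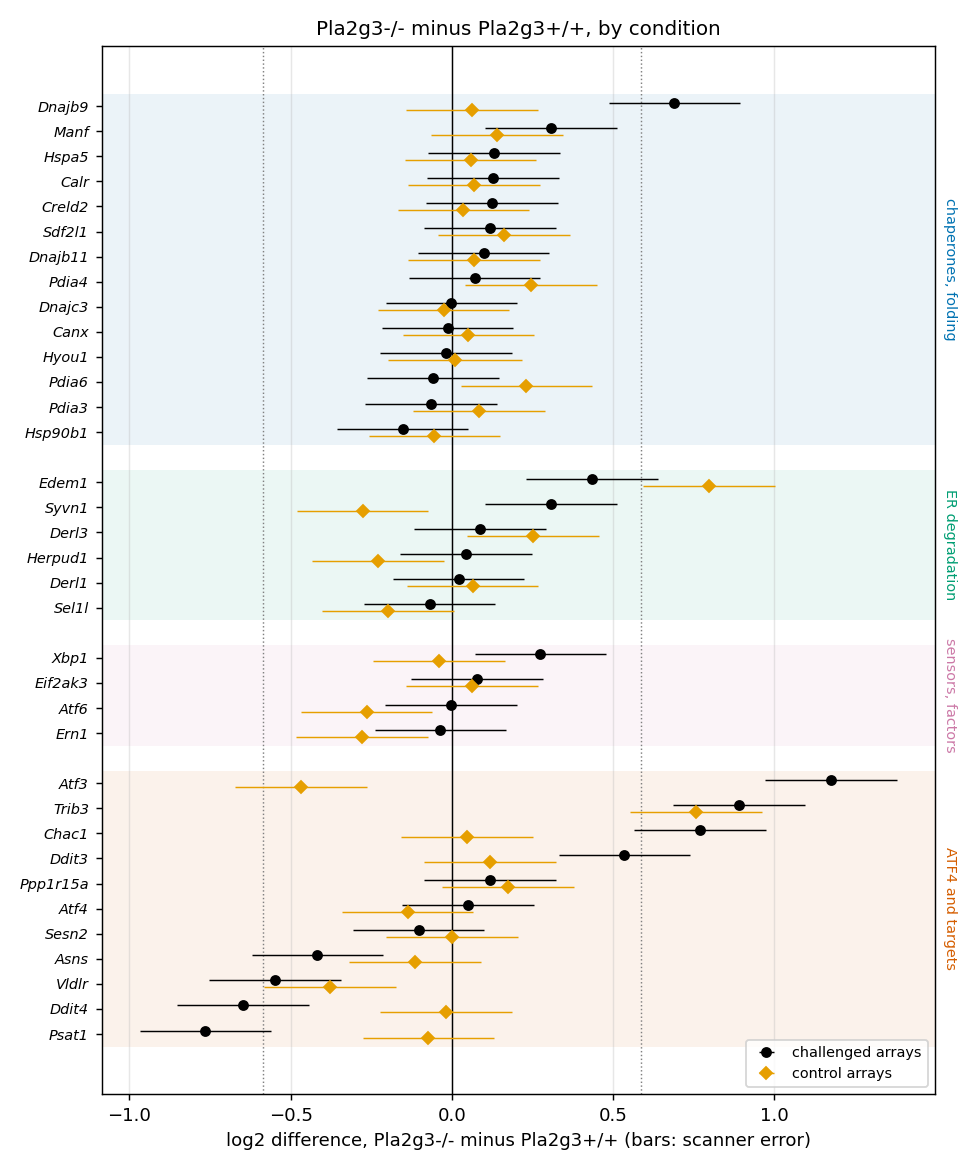
Difference between arrays labelled Pla2g3-/- and wild type (log2) for the 35 genes by role, black circles for the challenged arrays and orange diamonds for the control arrays, with bars for the scanner's error and dotted lines at 1.5-fold. The chaperones lie near 0 except Dnajb9 on the challenged arrays, and the ATF4 group runs from −0.76 for Psat1 to 1.18 for Atf3 there.

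The one test that the design allows, an additive limma fit of challenge and genotype over the 4 arrays with 1 residual degree of freedom and Benjamini-Hochberg adjustment over 21576 genes, called 0 of the 35 genes at an adjusted p of 0.05 for either effect. It called 5 genes in all for challenge (0.0232%) and 8 for genotype (0.0371%). At an unadjusted p of 0.05, it passed 21 of 35 for challenge, beside 15.8% of all genes, and 3 of 35 for genotype, beside 12.4%. The lowest adjusted p of the 35 was that of Manf, whose average challenge difference in this limma fit was 0.96 ± 0.09 (SE; adjusted p = 0.126). Creld2 had 0.81 ± 0.09 (limma adjusted p = 0.126), Hspa5 0.77 ± 0.09 and Xbp1 0.97 ± 0.12 (both limma adjusted p = 0.148). Chac1 had 1.495 ± 0.21 (limma adjusted p = 0.157). For genotype, Trib3 came lowest with 0.82 ± 0.13 (limma adjusted p = 0.166). The fit takes a gap between the genotypes as error, which is large for genes such as Atf3 (0.46 ± 0.40, limma adjusted p = 0.626).

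Other genes of these pathways were described by the same counts. Of 25 other genes of ER folding, translocation and export, 22 in cells labelled Pla2g3-/- and 25 in wild-type cells were above 0, with medians of 0.29 and 0.28. At least 1.5-fold higher were 4 in cells labelled Pla2g3-/-, beside 7.74% of all genes, and 0 in wild-type cells, beside 4.56%. These 4 were Fkbp11, a prolyl isomerase of the ER (0.88 and 0.49), and Hspa13, an Hsp70 relative (0.87 and 0.38), with Sec24d and Txndc11. Sec24d, a coat protein of ER export vesicles, differed by 0.65 and 0.31, and Txndc11, a thioredoxin-domain protein, by 0.63 and 0.53. Fkbp11 was measured at low levels (−6.33 on the control wild-type array). Of 12 other degradation genes, 10 and 8 were above 0, with medians of 0.13 and 0.16. At least 1.5-fold higher were 0 in either genotype, beside the same shares of all genes, and 0 were 1.5-fold lower. Of 17 other sensors and regulators, 10 and 12 were above 0, with medians of 0.09 and 0.13. Among them, Creb3l1, a membrane-bound factor related to ATF6, differed by 0.68 and 0.41, and Ern2, the epithelial relative of IRE1, by −0.34 and −0.33.

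Other known ATF4 targets were mixed. Of 23 measured of 24, 2 in cells labelled Pla2g3-/- and 6 in wild-type cells were at least 1.5-fold higher. Over all genes the shares were 7.74% and 4.56%. The medians of these targets were 0.07 and 0.15. Fgf21 was not well above background on any array. Slc7a11, the cystine importer, was highest with 1.29 and 1.84, but from low levels (−7.19 on the control wild-type array). Mthfd2 and Aldh1l2, enzymes of mitochondrial folate metabolism, differed by 0.56 and 0.80 and by 0.55 and 0.81. Aldh1l2 was low too (−5.32 on the control wild-type array). Phgdh, the first enzyme of serine synthesis, was at 0.53 and 1.16 with and without challenge in cells labelled Pla2g3-/-, and at 1.29 and 0.64 in wild-type cells. Its differences of −0.63 and 0.65 had opposite signs, as had those of Psph (−0.20 and 0.30), the last enzyme of that pathway, beside 0.03 and 0.72 for Psat1. The 12 aminoacyl-tRNA synthetases differed by medians of 0.38 and 0.38, with 11 and 12 above 0. Mars1 (0.42 and 0.70) and Yars (0.46 and 0.68) were past 1.5-fold in wild-type cells, Yars from a low level (−4.65 on the control wild-type array).

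Genes of the goblet and secretory list were higher beside the chaperones. All 10 were above 0 in both genotypes, with medians of 0.66 in cells labelled Pla2g3-/- and 0.42 in wild-type cells. At least 1.5-fold higher were 7 and 4 of them, beside 7.74% and 4.56% of all genes. The secretoglobin genes Scgb1a1 (−0.22 and 0.04) and Scgb3a2 (−0.08 and 0.06), counted in the airway epithelial list, did not share this rise. The summed scaled signal of the goblet and secretory list was 458 and 352 with and without challenge in cells labelled Pla2g3-/-, and 425 and 286 in wild-type cells. Bright genes weigh most in such a sum, and Clca1 was at 6.73 with and 4.83 without challenge in wild-type cells. Spdef, a regulator of goblet cells, differed by 1.05 and 0.42, and Muc5ac, a gel-forming mucin, by 1.15 and 0.86. The part of this list in the chaperone values was not tested. Plasma and B cell genes, from cells that also carry a large ER, did not run with the chaperones in wild-type cells: 0 of 10 measured were 1.5-fold higher and 5 were 1.5-fold lower, with a median of −0.68. In cells labelled Pla2g3-/- 1 of 11 was 1.5-fold higher (Irf4), and Tnfrsf17, a defining plasma cell marker, was well above background on 1 array only.

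Outside the 35 genes, the ERSE letters did not go with higher values. All 9 of the 35 genes with the ERSE letters were above 0 in both genotypes. At least 1.5-fold higher were 4 of them in each genotype, beside 7.74% of all genes in cells labelled Pla2g3-/- and 4.56% in wild-type cells. That is near the share in the 35 genes as a whole, 15 of 35 and 13 of 35. Canx, Dnajc3 and Hsp90b1 carry the letters and stayed below 1.5-fold in both genotypes. Of the 28 other genes with these letters, 16 were measured in each genotype. At least 1.5-fold higher were 0 of the 16 in either. At least 1.5-fold lower were 4 and 1, beside 9.99% and 5.32% of all genes. The medians of the 16 were −0.12 and 0.02. Conversely, Sdf2l1 and Pdia4 were at least 1.5-fold higher in both genotypes with no ERSE letters in the window searched. Among 6 of the 35 genes with CARE letters, 4 were 1.5-fold higher in cells labelled Pla2g3-/- and 2 in wild-type cells, beside 42 of 502 and 31 of 520 other measured genes with those letters.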

How the data were processed

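Each array is 1 group's RNA, pooled from 4 samples per the labels, which also gave the groups. Spot intensity was deposited as scanner output of Agilent Feature Extraction 11.5.1.1, which subtracted a spatially detrended background and applied a multiplicative detrending, per the file headers, and placed probes on mm9. The authors' deposited matrix holds intensity too, and its values equal the processed signal divided by each array's 75th percentile (column medians 0.0850, 0.0879, 0.0860 and 0.0875, in the order challenged and control labelled Pla2g3-/-, challenged and control wild type), so its scale is known. The flags deposited with each spot (well above background, saturated, outlier, control) were used as filters.

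Control spots and outlier spots (128 to 155 per array) were left out, no spot was saturated, and spots of a probe were averaged. The value is log2 of the processed signal minus the array's 75th percentile. A gene is represented by its brightest probe over the 4 arrays, and 7 of the 35 genes have more than 1. Of 39429 probes, 28330 took their symbol from a RefSeq table by accession. Medians and counts over genes use those well above background on at least 1 of the arrays compared. Where 1 array was below background, the difference is a lower bound in size.

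Differences between single arrays carry the scanner's error. The additive fit used limma 3.58.1 in R 4.3.3 on genes well above background on all 4 arrays, with a trend. It has 1 residual degree of freedom and assumes that the effects add up. The 4 arrays share a slide and a scan, and position on the slide and group cannot be told apart. Alternatives were normexp background correction (offset 50), quantile normalization, the mean of all probes, genes well above background on all 4 arrays, the deposited matrix and limma without a trend. The other genotype's control array was added after seeing the data.

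The 35 genes and the lists around them were chosen with earlier results of these data known. All 35 could be named. The rule for giving a gene on every array was, per role, the largest difference in any of 4 comparisons (up to 4 per comparison). For each other list it was up to 4 genes per comparison. This rule was not followed in full. Sdf2l1, Pdia6, Derl3 and the sensors other than Xbp1 met it but are given by differences only, and Calr is given on every array without meeting it. Others named with differences only are given for their role.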

Additional observations from a re-analysis of the deposited data

Results flagged for a closer look

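The challenge difference had opposite signs in the 2 genotypes for 5 of the 35 genes, with 1 array per group, and the difference between the genotypes was not tested. Atf3 differed by 1.28 in cells labelled Pla2g3-/- and by -0.36 in wild-type cells, which is past the scanner's error of 0.20 in each. With the other genotype's control array it differed by 0.81 and 0.10, so its sign in wild-type cells turned. The other 4 had small values on both sides, and their signs turned with the control array in both genotypes. Values with the other control array reuse the same arrays and include the genotype difference between the control arrays (0.80 for Edem1). They are thus no separate check of sign. Atf6 differed by 0.25 and -0.01 (-0.01 and 0.26 with the other control array), Edem1 by -0.22 and 0.14 (0.57 and -0.66), Herpud1 by 0.10 and -0.18 (-0.13 and 0.05), and Ern1 by 0.085 and -0.16 (-0.20 and 0.12). Over all genes, 8060 of 22687 had opposite signs.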

How the results depend on the processing

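The deposited matrix and the filter on dim probes give the same values of the 35 genes by construction and show nothing about stability. Of 67 values under the other settings, 58 stayed within the spread or count range allowed and 9 did not. Medians near 0 could still change sign within it, such as the chaperone median of the gap between the challenge differences (-0.0013, and 0.0317 with quantile normalization). The 42 differences of the 35 genes past 1.5-fold kept their sign under normexp, quantile normalization and the mean of all probes, and 1, that of Hyou1 in cells labelled Pla2g3-/-, changed by over 1.5 times (0.94, and 0.59 with normexp). The number of genes called by limma for challenge was 5, and 0 without a trend. For genotype it was 8, and 4 with quantile normalization, 1 with the mean of all probes, 0 with normexp (2480 genes at an unadjusted p of 0.05) and 0 without a trend (2742 such genes; 2834 for challenge). The ATF4 group's median in cells labelled Pla2g3-/- was 0.27, and 0.39 with quantile normalization. In wild-type cells, the genes at least 1.5-fold higher with challenge were 13 of 35, and 11 with normexp or with quantile normalization. Set against the other genotype's control array, a setting added once the data had been seen, the ATF4 group's median was 0.37 in cells labelled Pla2g3-/- and 0.10 in wild-type cells (0.20 with its own control), the chaperone median was 0.79 in cells labelled Pla2g3-/- (0.64 with its own control) and 0.55 in wild-type cells, and the genes at least 1.5-fold higher were 13 and 9 of 35. The cause was not tested.

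No paired analysis was possible because each group has 1 array and the replicate numbers only name the samples. Leaving out a replicate was likewise not possible. The number of arrays limits the precision and all 35 genes were well above background on all 4 arrays.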
